A study of Mus musculus with 4 samples.

Results

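The cells described are prostatic epithelial cells of cultured mouse urogenital sinuses (UGS), taken on day 3 and on day 6 of culture. They were selected on their own counts in 1 droplet library, which holds unique molecular identifiers (UMIs, 1 per captured transcript) for 7474 cells out of 19148 in the study. A cell was kept if it had more than 1000 detected genes and under 7.5% mitochondrial UMIs. Its day came from its MULTI-seq barcode, a short DNA tag bound to the cell membrane before pooling: each barcode count was divided by that barcode's median over the library, and the top ratio had to be at least 3 and at least 2 times the second. Prostatic cells then needed at least 1 *Epcam* UMI, fewer than 2 *Pax2* UMIs, fewer than 5 UMIs of *Upk1a*, *Upk2* and *Upk3a* together, and under 20 UMIs of *Col1a1* and *Col3a1* per 10000. These limits kept 3322 cells, 948 of day 3 and 2374 of day 6, beside 670 of day 0 and 771 of day 1.

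The urogenital sinus is the embryonic tube below the bladder whose epithelium gives rise to the prostate. Androgens act first on the surrounding mesenchyme, and the epithelium answers by growing out as solid buds that elongate and branch. SHH is made by the sinus epithelium and acts on the mesenchyme, and basal keratins and p63 are broadly present before a separate luminal layer forms. KRT4 and PSCA mark luminal cells of the ducts next to the urethra in the adult gland.

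All explants came from E15.5 embryos of the ICR (CD-1) strain, an outbred stock, with no transgene or deleted allele named for them, and all were grown on filters in medium with insulin, transferrin, selenite and 10 µM dihydrotestosterone. The middle part of each explant was cut out to favour budding regions, tissue was pooled by time point after dissociation, and live EPCAM+ cells were sorted. Day 0 cells were taken at E15.5. The day 3 pool came from a single litter and the day 6 pool from more than 1 litter, so litter and day cannot be told apart. The 4 pools shared 1 capture and 1 sequencing library, while each was sorted and barcoded on its own. Each day is thus 1 pool with no replicate, and no test of a difference between days was possible.

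The barcode sequences are shown because every comparison between days rests on them.
Day 0: TTAGCCAG
Day 1: GGACCCCA
Day 3: CCAACCGG
Day 6: TGACCGAT
The day 3 barcode had a median count of 236 in day 3 cells and of 25 in day 6 cells. The day 6 barcode had a median of 1120 in day 6 cells and of 68 in day 3 cells, the highest stray level of any barcode in the prostatic cells of day 3. The limit on the top ratio was the one with the most cells close to it, with 333 cells of day 3 or day 6 between ratios of 3 and 4 and 272 cells between 2 and 3. At the other limits, 82 kept cells had 1 *Epcam* UMI against 67 left out with none, 116 had 1 *Pax2* UMI against 30 with 2, and 21 had 4 uroplakin UMIs against 24 with 5.

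The summed UMIs were 17916649 at day 3 and 35623520 at day 6, against 14419934 at day 0 and 15531067 at day 1. The median cell held 16960 UMIs and 3887.5 genes at day 3, and 13375 UMIs and 3366.5 genes at day 6. *Xist*, which is transcribed from the inactive X chromosome, and 4 Y-linked genes show that the pools held cells of female and of male embryos. The shares that follow are of cells and do not give the shares of embryos. Of cells with only one of these signals, 26.6% (95% interval 23.6 to 29.8) had *Xist* at day 3 and 42.9% (40.7 to 45.1) at day 6, and 72 and 139 cells had both. Cell barcodes shared with the adult libraries numbered 5, 5 and 6.

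Levels below are UMIs of a gene summed over all prostatic cells of a day, per 1000000 summed UMIs (CPM), with exact Poisson intervals. Ratios have exact 95% intervals and shares of cells exact binomial ones, and these cover counting error only, not the spread between explants or litters. The intervals of levels and ratios take each UMI as an independent draw, so they also leave out the spread between cells. They are too narrow for a gene whose UMIs sit in few cells. A summed level cannot tell fewer cells with a transcript from less transcript per cell, so shares are given for cells thinned to 5000 UMIs each, which left 939 and 2358 cells. A share in 18 cells of the same days with collagen UMIs and no *Epcam* serves as background for free RNA (median depth 7994 UMIs).

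The label of the cells held in so far as epithelial and prostatic markers were present at both days. *Epcam*, which chose the cells, was at 1038 CPM at day 3 and 931 CPM at day 6, *Krt15* at 4345 and 4822 CPM, and *Hoxd13* at 37.2 and 39.7 CPM. *Hoxd13* UMIs were found in 17.0% and 15.8% of thinned cells and in 3 of 18 background cells (16.7%), so this gene does not set them apart from mesenchyme. *Hoxb13* UMIs were found in 22.6% and 29.8% and in 0 of 18 background cells, which allows up to 18.5%. The limits do not separate cells of buds from other sinus epithelium, and nothing measured here is growth itself. Of markers of other cells, the mesenchymal list summed to 33.8 CPM at day 3 and 40.9 CPM at day 6, blood to 2.62 and 3.87 CPM, endothelium to 1.06 and 1.54 CPM, smooth muscle to 7.65 and 5.39 CPM, and neural cells to 6.25 and 2.36 CPM. *Cd3d*, *Hba-a2*, *Cdh5*, *Kdr* and *Emcn* had no UMI on either day. Bladder markers summed to 307 and 241 CPM, mostly *Krt7*, and mesonephric markers to 542 and 268 CPM, mostly *Wfdc2*. The limits on *Pax2*, uroplakins and collagens fix part of these sums.

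Most genes were at nearly the same level on the 2 days. The comparison took the 7492 genes that averaged 10 CPM or more over both days. Of these, 7174 (95.8%) differed by less than 1.5-fold, a limit added after the data were seen, and the median log2 ratio of day 6 over day 3 was -0.01, with a 10th percentile of -0.30 and a 90th of 0.30. A log2 ratio of 0.0045, that of *Cox8a*, stood at percentile 53.6 of these genes. Counts of list members above or below equality stand beside this near-even split. At least 2-fold higher at day 6 were 41 genes (0.547% of those measured), and at least 2-fold lower were 41 (0.547%). The limit of 1.5-fold gave 179 higher (2.39%) and 139 lower (1.86%). Day 6 was the highest of the 4 days in 36 of the 41 higher genes, and the lowest of the 4 in 29 of the 41 lower genes. Levels were in ascending order over days 0, 1, 3 and 6 in 16 of the higher genes and in descending order in 12 of the lower genes. The choice of genes by their ratio of day 6 over day 3 favours such orders. The shares over all measured genes were not counted, so these counts only describe the chosen genes.

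**Figure D1:**
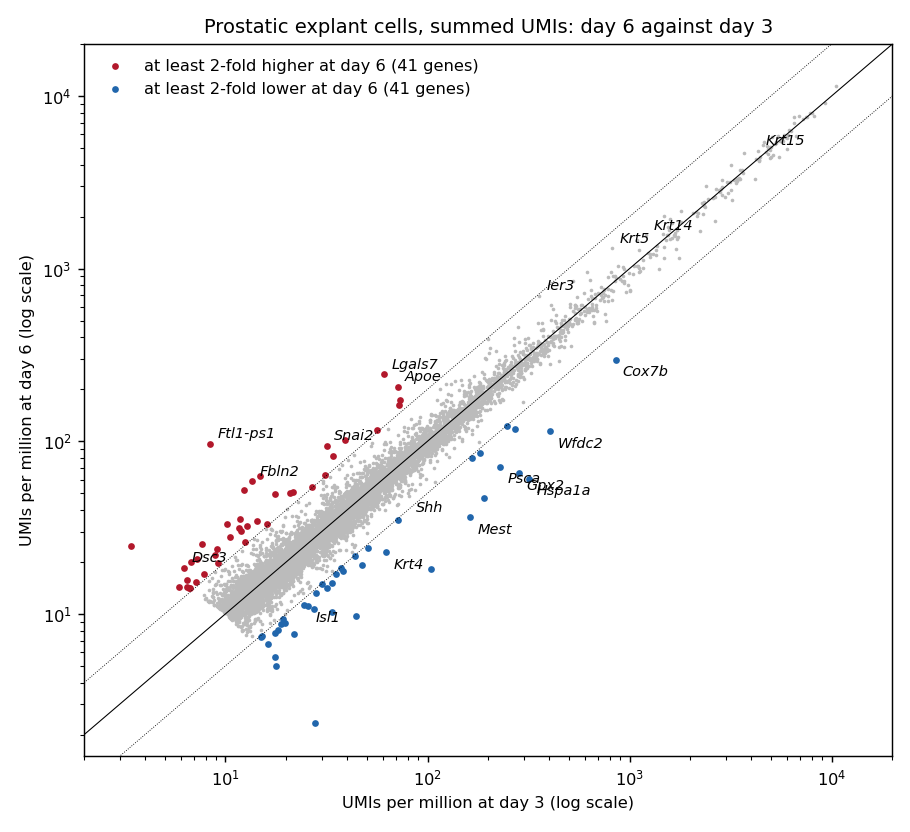
Summed level of each measured gene in prostatic cells of day 3 (horizontal, CPM, log axis) against day 6 (vertical, CPM, log axis), 1 point per gene and 1 pool of explants per day. The genes past 2-fold, 41 on each side, are few beside the 7174 genes that differ by less than 1.5-fold.

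Basal genes had the highest list median over all prostatic cells, but this order did not hold in every class of cells. In cells with *Xist* UMIs only the median was 0.53 for basal and 0.80 for Notch genes, and in Y-linked cells 0.55 and 0.49. Below and above 20 UMIs of Krt5 plus Krt14 per 10000, it was 0.52 and 0.38 for basal genes and 0.58 and 0.45 for Notch genes. *Krt5* (chromosome 15, 101707070 to 101712898, GRCm38), a basal keratin, was at 632, 798, 823 and 1309 CPM at days 0, 1, 3 and 6, which is 1.59-fold higher at day 6 than at day 3 (95% interval 1.56 to 1.62). The share of thinned cells with a *Krt5* UMI was 66.8% (63.7 to 69.8) at day 3 and 77.5% (75.8 to 79.2) at day 6, against 1 of 18 background cells (5.56%, 0.141 to 27.3), and unthinned shares were 79.0% and 84.0%. *Trp63* (chromosome 16, 25683763 to 25892102), which encodes the basal regulator p63, stayed between 82.8 and 87.1 CPM from day 0 to day 3 and was at 135 CPM at day 6, or 1.63-fold higher (1.54 to 1.73). A *Trp63* UMI was found in 32.6% (29.6 to 35.7) and 43.8% (41.8 to 45.8) of cells, and in 0 of 18 background cells, which allows a share of up to 18.5%. *Krt14*, the partner of KRT5 in basal filaments, was at 1212 and 1567 CPM, 1.29-fold higher (1.27 to 1.31). Its thinned share was 78.7% at day 3 and 76.0% at day 6, so the higher level went with no larger share of cells. *Krt15* was 1.11-fold higher (1.10 to 1.12).

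Of 11 basal genes measured, all 11 had a ratio above 1, with a median log2 ratio of 0.67 against -0.01 for all genes. Past 1.5-fold were 6 of them, and past 2-fold only *Apoe* (chromosome 7, 19696109 to 19699188), which encodes a lipid carrier. *Apoe* was at 26.1, 40.8, 71.2 and 207 CPM over the 4 days, 2.91-fold higher at day 6 (2.75 to 3.09). *Apoe* UMIs were found in 17.8% (15.4 to 20.4) and 33.1% (31.2 to 35.1) of cells, and the mesenchymal background cells, of which 9 of 18 had one, give no background level for it. Among cells with Krt5 plus Krt14 at 20 or more UMIs per 10000, the basal median was 0.38, and among cells under that limit 0.52. The basal list holds *Krt5* and *Krt14*, the genes of this split, so these medians are not independent of it. Cells past that limit made up 40.8% (37.6 to 44.0) of thinned cells at day 3 and 50.8% (48.8 to 52.8) at day 6, and 13.2% and 14.6% lay between 15 and 25.

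The genes that anchor basal cells to the basement membrane followed the same direction at smaller size. Of 20 measured, 19 were above equality with a median of 0.32, 4 passed 1.5-fold and none passed 2-fold. *Col7a1*, which encodes the collagen of anchoring fibrils, was at 15.9, 33.9, 37.6 and 72.6 CPM, 1.93-fold higher at day 6 (1.77 to 2.10). *Itga6*, an integrin of hemidesmosomes also known as CD49f, was at 130 and 215 CPM, 1.65-fold higher (1.57 to 1.73).

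Genes of stratified epithelia were mostly above equality, and *Lgals7* and *Dsc3* were far above it. *Lgals7* (chromosome 7, 28863853 to 28866284), which encodes the galectin of stratified epithelia, was at 83.2, 48.9, 61.1 and 244 CPM, 3.99-fold higher at day 6 than at day 3 (3.75 to 4.26). A *Lgals7* UMI was found in 18.4% (16 to 21.1) of cells at day 3 and 43.0% (41.0 to 45.0) at day 6. It was found in 0 of 18 background cells, which allows up to 18.5%, so they do not resolve the day 3 share from background. The upper 5% of cells held 49.0% of its UMIs at day 3 and 38.6% at day 6. *Dsc3*, a desmosomal cadherin of basal and stratified layers, was at 6.25 and 18.5 CPM (2.96-fold higher, 2.42 to 3.65). *Perp*, a p63 target found in desmosomes, was at 420 and 581 CPM (1.38-fold, 1.35 to 1.42). Of 13 genes of this list measured, 10 were above equality with a median of 0.32, and *Lgals7* and *Dsc3* were the only members past 2-fold.

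*Snai2* (chromosome 16, 14705852 to 14709385), which encodes the transcription factor SLUG, was at 16.4, 33.3, 31.6 and 94.0 CPM. Its day 6 level was 2.97-fold that of day 3 (2.72 to 3.25), with UMIs in 14.2% (12 to 16.6) and 32.2% (30.3 to 34.2) of cells. Mesenchymal background cells have it too (38.9%). Proteoglycan and matricellular genes had a median of 0.32 over 16 members, with 3 past 2-fold. These were *Fbln2*, a basement membrane fibulin, at 13.6 and 58.7 CPM (4.33-fold higher, 3.79 to 4.96), *Ctgf*, a matricellular growth factor, at 14.3 and 34.7 CPM (2.43-fold, 2.12 to 2.79), and *Col16a1* at 20.9 and 50.4 CPM (2.41-fold, 2.16 to 2.70). Their log2 ratios in *Xist* and Y-linked cells were 3.05 and 2.08 for *Fbln2*, 2.16 and 1.29 for *Ctgf*, and 1.74 and 0.99 for *Col16a1*.

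**Figure D2:**
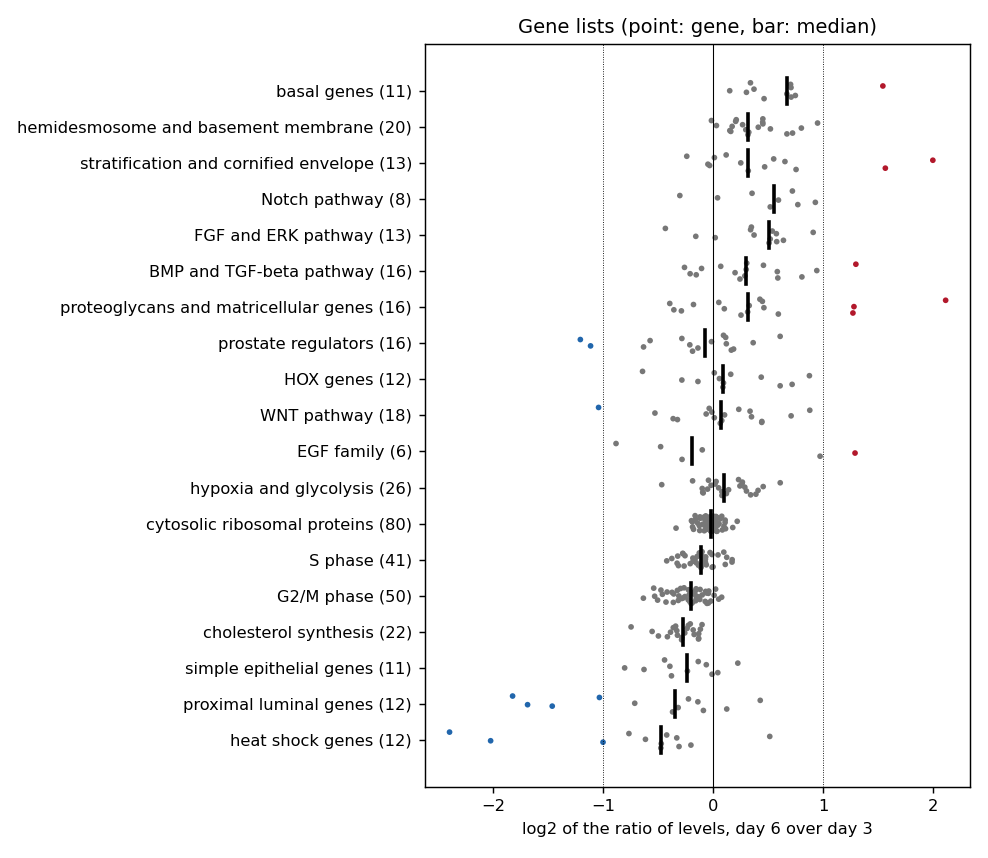
Log2 ratio of day 6 over day 3 for the measured members of the main gene lists (horizontal axis, log2 units, 1 point per gene, with the list median marked). The basal list has the highest median, 0.67, and the heat shock list the lowest, -0.47.

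Proximal luminal genes lay on the other side. *Krt4* (chromosome 15, 101918535 to 101924735) was at 51.6, 61.7, 62.6 and 22.7 CPM at days 0, 1, 3 and 6, 2.76-fold lower at day 6 than at day 3 (2.52 to 3.02). *Psca* (chromosome 15, 74714839 to 74717069), a membrane antigen of the same adult cells, was at 59.2, 65.4, 229 and 71.2 CPM, so that day 3 stood above the other 3 days and day 6 was 3.22-fold lower (3.07 to 3.39). *Krt4* UMIs were found in 13.0% (10.9 to 15.3) and 5.89% (4.98 to 6.92) of thinned cells, and *Psca* UMIs in 9.37% (7.58 to 11.4) and 4.37% (3.58 to 5.27). The background had *Krt4* in 0 of 18 cells, which allows up to 18.5%, and *Psca* in 1 of 18 (5.56%), so the day 6 share of *Psca* was not above background, and the 18 cells do not resolve the others from it.

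*Psca* transcripts sat in few cells. The upper 5% of cells held 95% of them at day 3 (48 cells) and 97.7% at day 6 (119 cells), and for *Krt4* 70.7% and 85.4%. Cells with both genes were 5.32% (3.98 to 6.96) and 1.23% (0.825 to 1.76) of thinned cells. The *Psca* difference was not seen under stricter limits on other cell types: with no *Pax2* and no uroplakin UMI allowed and collagens under 5 per 10000, its log2 ratio was -0.03, and that of *Krt4* -0.88. For *Psca* it was -0.36 in cells with Y-linked UMIs only, where the levels were 123 CPM at day 3 and 95.6 CPM at day 6, and -2.52 in cells with *Xist* only (244 and 42.5 CPM). *Krt4* had -1.46 and -1.67 in the same classes.

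*Wfdc2* (chromosome 2, 164562413 to 164568510), a secreted protease inhibitor family member that both the proximal luminal and the mesonephric list hold, was at 436, 544, 403 and 114 CPM, 3.54-fold lower at day 6 (3.41 to 3.68). *Wfdc2* UMIs were found in 50.5% (47.2 to 53.7) and 20.6% (19 to 22.3) of cells, and in 0 of 18 background cells. *Nupr1*, a stress-inducible chromatin protein, was at 71.8 and 35.1 CPM (2.05-fold lower, 1.89 to 2.22), but its log2 ratio was -0.33 in Y-linked cells against -1.75 in *Xist* cells. Of 12 proximal luminal genes measured, 10 were below equality, with a median of -0.34, and 4 passed 2-fold. *Ly6d* was at 62.7 and 68.3 CPM, 1.09-fold higher (1.01 to 1.17), but its direction turned between classes, with a log2 ratio of -0.52 in *Xist* cells, 0.44 in Y-linked cells and 2.02 in cells with Krt4 plus Psca under 5 UMIs per 10000. With the stricter limits on other cell types the list median was -0.09, and the part of other cell types in these values was not tested.

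Simple epithelial genes differed less. *Krt8*, the luminal keratin, was at 871, 801, 650 and 623 CPM and its partner *Krt18* at 991, 971, 663 and 488 CPM, which put day 6 below day 3 by 1.04-fold (1.02 to 1.07) and 1.36-fold (1.33 to 1.39). *Cldn7*, a tight junction claudin, was at 295 and 169 CPM (1.75-fold lower, 1.68 to 1.81). The list had 9 of 11 members below equality, with a median of -0.23 that was -0.01 under the stricter limits on other cell types. Basal and luminal keratins occurred together in most cells: *Krt5* and *Krt8* UMIs were both found in 56.1% (52.9 to 59.3) of thinned cells at day 3 and 63.8% (61.8 to 65.8) at day 6, and *Krt14* and *Krt8* in 62.5% (59.3 to 65.6) and 62.0% (60.0 to 63.9). *Trp63* and *Krt8* were both found in 25.8% (23.0 to 28.7) and 36.7% (34.8 to 38.7). None of the 18 background cells had any of these pairs.

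**Figure D3:**
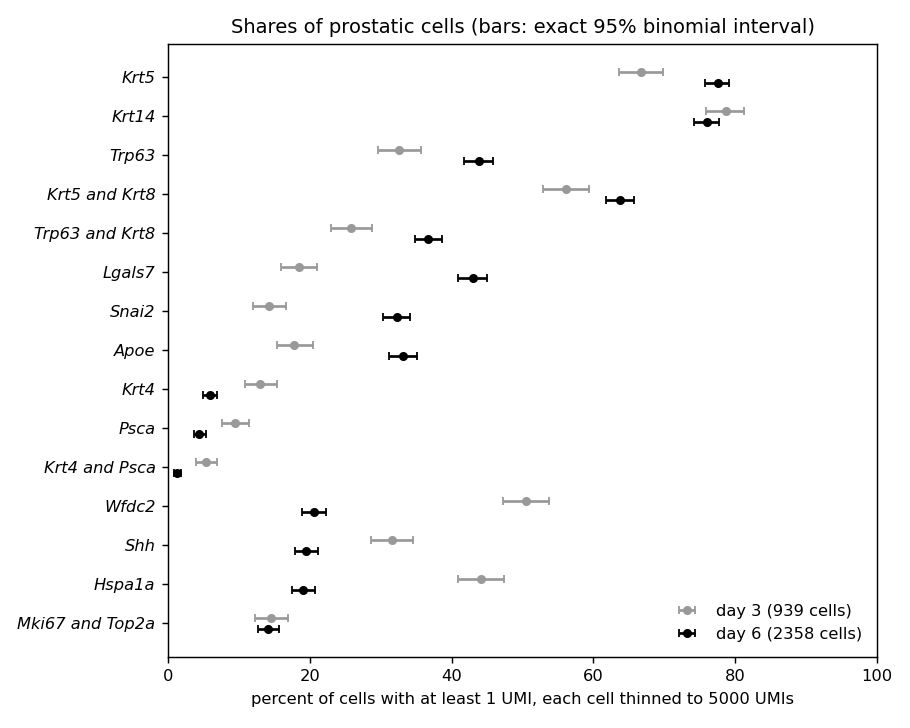
Share of prostatic cells, thinned to 5000 UMIs, with at least 1 UMI of a gene or gene pair (percent) at day 3 (939 cells) and day 6 (2358 cells), with exact 95% binomial intervals for counting error. *Lgals7* is at 18.4% and 43.0%, and *Wfdc2* at 50.5% and 20.6%.

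Among regulators of the prostate and sinus, most were within 1.5-fold. *Hoxb13*, a posterior HOX gene of the prostate, was at 54.2 and 82.6 CPM (1.52-fold higher, 1.42 to 1.64). *Runx1*, the gene the study follows, was at 96.9, 86.6, 55.6 and 63.3 CPM, 1.14-fold higher at day 6 than at day 3 (1.05 to 1.23), with UMIs in 24.0% (21.3 to 26.8) and 26.1% (24.4 to 27.9) of cells. Background cells had it in 2 of 18 (11.1%, 1.38 to 34.7), an interval that holds both shares. The study reports activity of a *Runx1* promoter in the stroma of the prostate, so these mesenchymal cells may make the transcript themselves. They therefore do not settle how far either share is free RNA. The log2 ratio of *Runx1* was -0.01 in cells without *Mki67* and *Top2a* and -0.05 in cells with Krt5 plus Krt14 at 20 or more per 10000, so its direction did not hold.

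The regulators past 2-fold were both lower. *Foxa2*, a forkhead factor of the early sinus epithelium, was at 24.4 and 11.3 CPM (2.17-fold lower, 1.89 to 2.49), although its log2 ratio was -0.48 in *Xist* cells and -1.44 in Y-linked cells. *Isl1*, a LIM homeobox factor of the genital region, was at 151, 41.7, 25.6 and 11.1 CPM in descending order, 2.31-fold lower at day 6 than at day 3 (2.02 to 2.65). Its UMIs were found in 11.8% and 4.96% of thinned cells and in 11 of 18 background cells (61.1%), which give no background level for it. The list of 16 regulators had 7 above and 9 below equality and a median of -0.08. The secretory genes of the list were below 10 CPM on average, and of 6 androgen-responsive genes measured the only one past 2-fold was *Zbtb16*, a zinc finger gene, at 9.21 and 19.8 CPM (2.15-fold higher, 1.81 to 2.56), which was under 2-fold on both sides of the limit on Krt5 plus Krt14 (log2 ratios 0.92 and 0.98). *Fkbp5*, a well-known androgen target, was at 14.3 and 16.2 CPM (1.13-fold, 0.975 to 1.32), and its interval held equality.

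**Figure D4:**
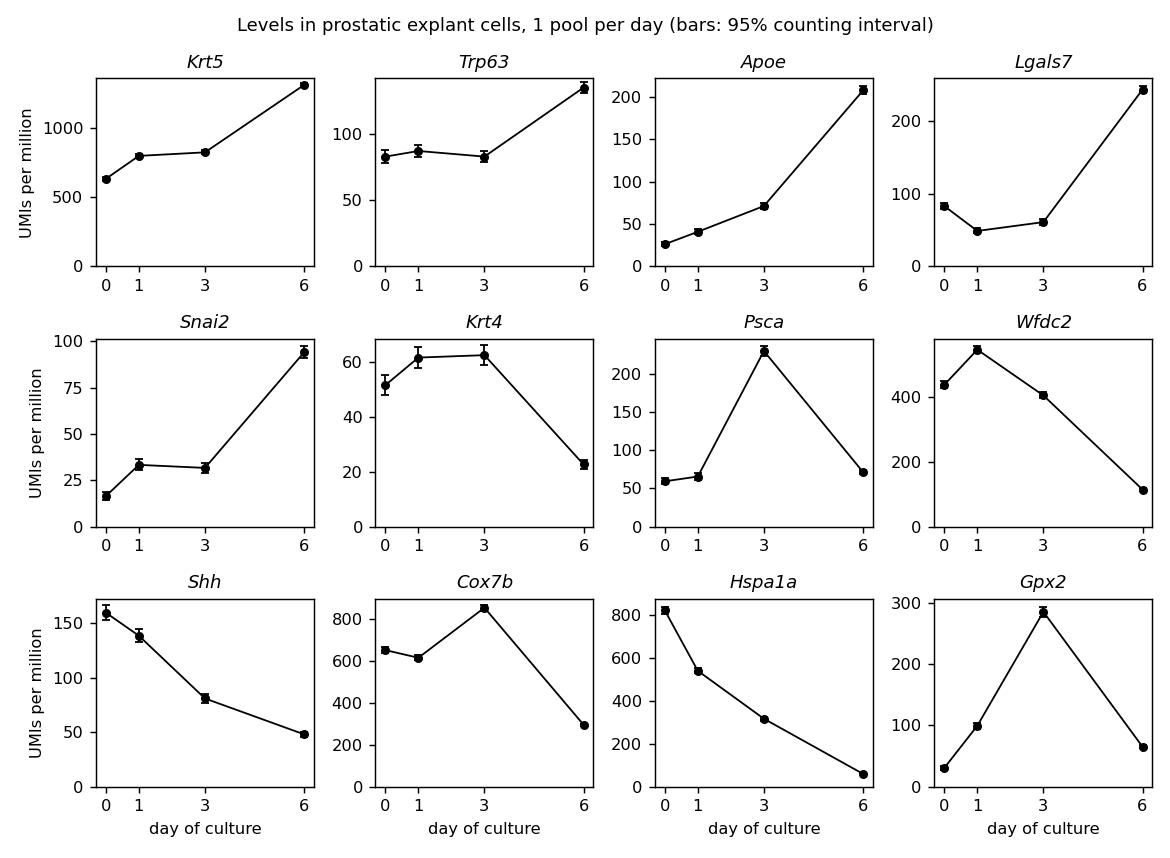
Summed level (CPM, linear axis from 0) of 12 genes in prostatic cells of days 0, 1, 3 and 6, 1 pool per day, with exact Poisson 95% intervals for counting error. *Trp63* stays between 82.8 and 87.1 CPM until day 3 and is at 135 CPM at day 6, whereas *Hspa1a* descends from 824 to 60.3 CPM.

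The signalling lists can be ordered by ligand, receptor and target. Of the Hedgehog list, 3 genes were measured. *Shh* (chromosome 5, 28456815 to 28467256), the ligand, was at 159, 138, 80.9 and 48.0 CPM over the 4 days, 1.68-fold lower at day 6 than at day 3 (1.57 to 1.81), with UMIs in 31.5% (28.6 to 34.6) and 19.5% (17.9 to 21.1) of thinned cells and in 0 of 18 background cells. The receptor gene *Ptch1* and the signal transducer *Smo* had log2 ratios of 0.30 and 0.21.

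Notch genes were above equality in 7 of 8, with a median of 0.56, 4 of them past 1.5-fold and none past 2-fold. The receptor *Notch1* was at 57.0 and 81.7 CPM (1.43-fold higher, 1.33 to 1.54) and the target *Hes1* (chromosome 16, 30064384 to 30067796) at 371, 191, 204 and 348 CPM (1.70-fold, 1.64 to 1.77). The ligand *Jag2*, which is counted in the basal list and not among these 8, was at 39.5 and 54.4 CPM (1.38-fold higher, 1.26 to 1.5). For *Hes1*, day 6 was thus above days 1 and 3 and below day 0.

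Of 13 genes of the FGF and ERK list, which includes the receptor gene of the mesenchymal signal FGF10, 11 were above equality with a median of 0.51. *Fgfr2*, that receptor, had a log2 ratio of 0.37. *Fgfbp1*, which releases FGFs from the matrix, was at 146 and 228 CPM (1.56-fold higher, 1.49 to 1.63). The ERK phosphatase gene *Dusp6* was at 126 and 188 CPM (1.49-fold higher, 1.42 to 1.57), while *Etv4*, a transcription factor that FGF signals induce, was at 144 and 106 CPM (1.35-fold lower, 1.29 to 1.42). The usual targets of this pathway therefore did not all lie on one side.

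BMP and TGF-beta genes had a median of 0.29 over 16 members, 12 of them above equality. The ligand *Bmp2* was at 8.87 and 21.8 CPM (2.46-fold higher, 2.07 to 2.93), with log2 ratios of 0.44 in *Xist* cells and 1.58 in Y-linked cells. *Bmp2* UMIs were found in 3.51% and 8.44% of thinned cells and in 5 of 18 background cells (27.8%), a share above that of both days. Of the ID genes, which BMP signals induce, *Id1* was 1.15-fold (1.13 to 1.17), *Id2* 1.5-fold (1.46 to 1.54), *Id3* 1.23-fold (1.21 to 1.25) and *Id4* 1.92-fold higher (1.77 to 2.09). Their day 0 levels were 1526, 499, 2781 and 65.8 CPM, against 1276, 615, 1947 and 78.0 CPM at day 6, so that *Id1* and *Id3* were highest in the tissue before culture.

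The EGF family split. The ligand *Nrg1* was at 6.42 and 15.7 CPM (2.44-fold higher, 2.00 to 3.01), but its log2 ratio was 0.56 in cells with Krt5 plus Krt14 at 20 or more per 10000 and 2.59 in the other cells. *Nrg1* UMIs were found in 2.98% and 6.83% of thinned cells and in 4 of 18 background cells (22.2%), a share above that of both days. The receptor *Egfr* was at 8.87 and 17.4 CPM (1.96-fold, 1.65 to 2.35). The ligand *Areg* was at 25.9 and 14 CPM (1.85-fold lower, 1.62 to 2.10), but its log2 ratio was 0.01 in Y-linked cells and -2.13 in *Xist* cells, and the upper 5% of cells held 85.8% and 97.0% of its UMIs. *Errfi1*, a feedback inhibitor of the EGF receptor outside that list, was at 133, 150, 73.3 and 174 CPM (2.37-fold higher, 2.23 to 2.52). Its UMIs were found in 29.1% and 45.0% of thinned cells and in 8 of 18 background cells (44.4%). The median of the 6 EGF genes measured was -0.19.

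In the WNT list, 18 genes had a median of 0.07 and *Wif1*, a secreted WNT inhibitor, was the only one past 2-fold, at 25.3, 44.5, 166 and 80.5 CPM (2.06-fold lower, 1.96 to 2.17). Its log2 ratio was -0.71 in *Xist* cells and -1.33 in Y-linked cells, and -0.87 and -0.95 in cells under and past the limit on Krt5 plus Krt14. Of 6 retinoid genes, the dehydrogenase gene *Aldh1a1* was at 11.0, 25.8, 26.7 and 54.2 CPM (2.03-fold higher, 1.83 to 2.25). Its log2 ratio was 1.99 in *Xist* cells and under the 2-fold limit at 0.63 in Y-linked cells, 0.59 in cells with Krt5 plus Krt14 at 20 or more per 10000 and 0.66 in cells without *Mki67* and *Top2a*. Its close relative *Aldh1a7*, outside that list, was at 33.9 and 81.8 CPM (2.41-fold higher, 2.21 to 2.64), with log2 ratios of 2.13 in *Xist* cells and 1.10 in Y-linked cells, and the 2 genes share sequence, so reads could be split between them.

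Cell cycle genes showed no member past 2-fold. The proliferation marker *Mki67* was at 91.2 and 96.2 CPM (1.05-fold, 0.994 to 1.12), and *Top2a* at 205 and 196 CPM (1.05-fold lower, 1.01 to 1.09). The thinned share of cells with *Top2a* was lower at day 6, at 27.9% (25.1 to 30.9) and 22.5% (20.8 to 24.3). For *Mki67* the thinned shares were 22.04% (19.4 to 24.8) and 18.2% (16.6 to 19.8), with overlapping intervals. Background cells had *Top2a* in 5 of 18 and *Mki67* in 1 of 18. Cells with both had thinned shares of 14.5% (12.3 to 16.9) and 14.1% (12.7 to 15.6), against 1 of 18 background cells. Unthinned, cells with both were 29.4% and 21.8%, at unequal median depth. The S phase list had 35 of 41 members below equality with a median of -0.11, and the G2/M list 46 of 50 with a median of -0.20, which was -0.01 in *Xist* cells and -0.22 in Y-linked cells. The D cyclins and their inhibitors had a median of 0.02 over 9 genes.

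Heat shock genes made up the lowest list over all cells, with 11 of 12 below equality, a median of -0.47 and 3 past 2-fold. In *Xist* cells the proximal luminal median was lower, at -0.91 against -0.57 for heat shock genes. In Y-linked cells it was higher, at -0.20 against -0.50. *Hspa1a*, an inducible HSP70 chaperone, was at 824, 541, 318 and 60.3 CPM, in descending order over the 4 days and 5.27-fold lower at day 6 than at day 3 (5.01 to 5.54). *Hspa1b*, its near-identical copy, was at 428, 284, 190 and 46.7 CPM (4.07-fold lower, 3.83 to 4.32), and the co-chaperone gene *Dnajb1* at 399, 304, 247 and 123 CPM (2.00-fold lower, 1.92 to 2.09), the last at the 2-fold limit, with log2 ratios from -1.20 to -0.89 over the alternatives. *Hspa1a* UMIs were found in 44.1% (40.9 to 47.3) and 19.1% (17.5 to 20.7) of thinned cells, and in 9 of 18 background cells, a share above that of both days, and no background level can be taken from them. Its log2 ratio was -3.20 in cells with Krt5 plus Krt14 under 20 per 10000 and -1.82 in the others. Dissociation and sorting, which were done once for each pool, cannot be told apart from the day of culture for these genes. The abundant constitutive chaperone genes *Hspa8* and *Hsp90ab1* had log2 ratios of -0.48 and -0.31.

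The promoters of these 3 genes are shown because heat shock factor binds inverted repeats of GAA, and because reads of *Hspa1a* and *Hspa1b* may be hard to separate. Each sequence gives the 120 bases before the start of the gene on its own strand (RefSeq, GRCm38.p6), with the motif GAANNTTC in capitals.
Hspa1a (chr17:34972157-34972276, minus strand): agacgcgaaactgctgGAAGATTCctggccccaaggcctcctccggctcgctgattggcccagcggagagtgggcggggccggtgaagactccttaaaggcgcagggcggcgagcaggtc
Hspa1b (chr17:34959239-34959358, minus strand): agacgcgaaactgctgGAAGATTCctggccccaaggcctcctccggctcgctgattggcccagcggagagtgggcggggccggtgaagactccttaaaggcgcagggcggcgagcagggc
Dnajb1 (chr8:83608055-83608174, plus strand): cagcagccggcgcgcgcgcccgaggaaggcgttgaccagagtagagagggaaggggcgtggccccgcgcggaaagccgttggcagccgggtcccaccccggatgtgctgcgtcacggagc
The first 2 differ at 1 of these 120 bases and at 3 of the 250 bases before the start. The motif begins 104 bases before the start in both and does not occur in the *Dnajb1* window. Over 250 bases, GAANNTTC, which is its own reverse complement, was found in 6 of the 9 heat shock genes with a promoter entry and in 6.69% of all 32851 promoters. The other arrangement, TTCNNGAA, was found in 3 of the 9 and in 7.17% of promoters, and either in 7 of the 9 and in 12.8%. The 6 genes with GAANNTTC include *Hspa1a* and *Hspa1b*, whose windows are near copies, so they are not independent finds. A gene was counted if any of its promoter entries matched, whereas the percentages are of single entries, so counts and percentages differ in basis. A match is a string in the sequence and no measurement of binding.

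Immediate early genes, which also respond to handling, lay on both sides, with a median of -0.08 over 21 genes. *Jun* was at 1756 and 1150 CPM (1.53-fold lower, 1.5 to 1.55) and *Fos* at 2234 and 1655 CPM (1.35-fold lower, 1.33 to 1.37). *Egr3* was at 11.9 and 30.3 CPM (2.54-fold higher, 2.19 to 2.95) and *Cyr61*, a matricellular target of YAP, at 219, 108, 56.1 and 117 CPM (2.08-fold higher, 1.94 to 2.23). *Cyr61* was under the 2-fold limit in *Xist* cells (log2 ratio 0.83), in cells with Krt5 plus Krt14 under 20 per 10000 (0.75) and in cells without *Mki67* and *Top2a* (0.90). *Cyr61* UMIs were found in 18.8% and 29.7% of thinned cells and in 9 of 18 background cells (50%), a share above that of both days. *Ier3*, a survival gene of the same list, was the most abundant of the 15 highest genes, at 225, 266, 356 and 697 CPM (1.95-fold higher, 1.90 to 2.01).

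Other genes far from equality belong to few of these groups. *Gpx2* (chromosome 12, 76792333 to 76795554), an epithelial glutathione peroxidase, was at 30.7, 99.4, 285 and 65.2 CPM, highest at day 3 and 4.37-fold lower at day 6 (4.16 to 4.59). Its UMIs were found in 45.6% (42.4 to 48.8) and 16.5% (15 to 18.1) of cells and in 0 of 18 background cells, which allows up to 18.5%. *Mest* (chromosome 6, 30723547 to 30748465), an imprinted gene, was at 14.8, 60.6, 163 and 36.2 CPM (4.49-fold lower, 4.20 to 4.80), and was the only one of 11 imprinted genes past 2-fold. *Mgp*, an inhibitor of calcification, was at 273 and 118 CPM (2.31-fold lower, 2.22 to 2.41). *Mest* UMIs were found in 22.4% and 9.2% of thinned cells, and *Mgp* UMIs in 52.6% and 31.9%. Background cells had *Mest* in 10 of 18 and *Mgp* in 9 of 18, so they give no background level for either gene. *Sult5a1*, a sulfotransferase gene, was at 39.0 and 102 CPM (2.62-fold higher, 2.41 to 2.84), with log2 ratios of 2.42 in *Xist* cells and 1.10 in Y-linked cells. Its UMIs were found in 17.8% and 34.4% of thinned cells and in 4 of 18 background cells (22.2%).

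*Cox7b* (chromosome X, 106015700 to 106022450), a subunit gene of cytochrome c oxidase, was at 651, 614, 852 and 295 CPM, 2.89-fold lower at day 6 (2.82 to 2.96). It was the only gene past 2-fold among 71 nuclear genes of oxidative phosphorylation, which had a median of -0.06. *Cox7b* UMIs were found in 96.0% (94.5 to 97.1) and 74.4% (72.6 to 76.2) of cells, and in 14 of 18 background cells (77.8%), so the mesenchymal cells give no background level for it. In *Xist* cells it was at 658 and 293 CPM and in Y-linked cells at 937 and 289 CPM, so the level of day 6 was lower in both. *Ftl1-ps1* (chromosome 13, 74399694 to 74407346), a copy of the ferritin light chain gene and therefore of uncertain read assignment, was at 23.4, 508, 8.43 and 96.9 CPM. Its log2 ratio of 3.52 was 5.21 in *Xist* cells and -0.63 in Y-linked cells.

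The remaining lists stood near equality. Medians were -0.02 for 80 ribosomal protein genes, 0.10 for 26 hypoxia and glycolysis genes, -0.07 for 13 integrated stress response genes, -0.13 for 10 class I MHC and interferon genes, -0.13 for 16 genes of folding in the endoplasmic reticulum, 0.05 for 13 metal and redox genes, 0.09 for 12 HOX genes, 0.04 for 6 SOX genes, 0.20 for 3 steroid receptor and enzyme genes, 0.08 for the 6 retinoid genes and 0.11 for the 6 androgen-responsive genes. Cholesterol synthesis genes were below equality in 22 of 22, with a median of -0.27 and none past 2-fold.

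The share of *Xist* cells differed between the 2 days, as given above. When cells with *Xist* only and cells with Y-linked UMIs only were taken apart, 26 of the 41 higher genes and 24 of the 41 lower genes were past 2-fold in both classes, and 40 and 40 had the same direction in both. Within *Xist* cells the log2 ratio of *Lgals7* was 2.5 and within Y-linked cells 1.88, that of *Snai2* 1.76 and 1.52, that of *Trp63* 0.88 and 0.63, that of *Hspa1a* -3.09 and -2.10 and that of *Shh* -0.80 and -0.91. *Xist* itself was at 200 and 393 CPM. When cells were taken apart at 20 UMIs of Krt5 plus Krt14 per 10000, 30 higher and 22 lower genes were past 2-fold in both classes, and 40 and 41 had the same direction. All these genes were chosen on sums that include the cells of each class, which favours the same direction. The counts are therefore no independent check. The part of the embryos' sex, the litters and the cells' depth in these values was not tested.

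**Figure D5:**
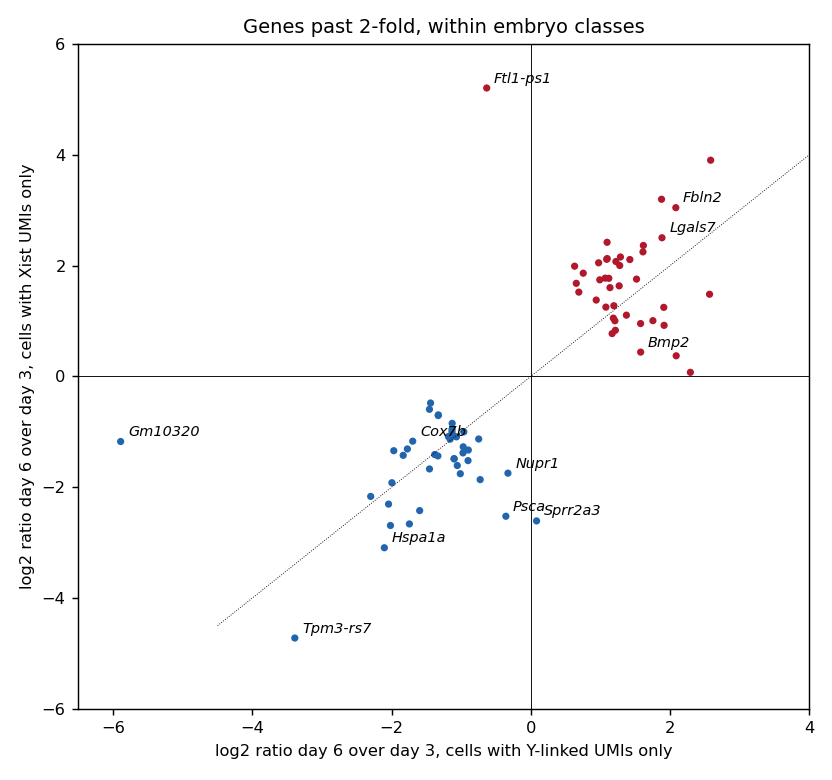
Log2 ratio of day 6 over day 3 for the genes past 2-fold, in cells with Y-linked UMIs only (horizontal, log2 units) against cells with *Xist* UMIs only (vertical, log2 units), with the dotted line at equal ratios. Red points are higher and blue points lower at day 6 in all cells, and 40 of 41 of each keep their direction in both classes. The genes were chosen on sums that include these cells, which favours the same direction.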

How the data were processed

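Live EPCAM+ cells of urogenital sinus explants were profiled by 3′ droplet RNA-seq (10x Genomics, v3 chemistry) with MULTI-seq barcodes. The authors deposited raw UMI counts per gene and cell, not normalized, and counts of MULTI-seq barcodes per cell. The submitters' processing notes name Cell Ranger 3.1.0, Seurat 3.1.5 and the mm10 (GRCm38) build. Whether counting used only reads unique to 1 gene is not given in the sources used here. The 3 adult libraries were used only to count shared cell barcodes.

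Counts were summed over the prostatic cells of a day and scaled to 1000000 (CPM). Genes that averaged 10 CPM or more over day 3 and day 6 were compared, with no pseudocount, and a gene under 3 UMIs in a day entered at 3 UMIs. Past 2-fold means a ratio of at least 2 either way. Ratio intervals are exact conditional binomial intervals at 95%. For shares, each cell was thinned to 5000 UMIs (seed 1). The ratio script was tested on simulated data. No doublet caller was run, and cells over 3 times the median UMIs were left out as an alternative.

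The cells, gene lists and limits were chosen with earlier results of these data known. Named are genes of a list that passed 2-fold, define their list or are among its 3 most abundant, the 15 highest and 15 lowest ratios at a mean of at least 50 CPM without Gm, Rik and mt- genes, the genes that chose the cells, and *Xist* with the Y-linked genes. *Sprr2a3* was named after its values were seen. Some genes that this rule would name are not reported here. Alternatives covered cell selection, scaling, thinning and subsets of cells, and 3 of 23 were added after the data were seen. Python 3.11.15, numpy 2.4.6, scipy 1.17.1, pandas 2.3.3, matplotlib 3.10.9, R 4.3.3 and edgeR 4.0.16 (TMM factors only) were used. Gene positions are from GENCODE on GRCm38.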

Additional observations from a re-analysis of the deposited data

Results flagged for a closer look

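The direction of 2 genes past 2-fold differed between cells with *Xist* UMIs only and cells with Y-linked UMIs only, and neither difference was tested. For *Ftl1-ps1*, the log2 ratio of day 6 over day 3 was 5.21 in *Xist* cells (6.20 and 229 CPM) and -0.63 in Y-linked cells (6.00 and 3.87 CPM). For *Sprr2a3*, a small proline-rich gene with close paralogs, it was -2.61 in *Xist* cells (45.1 and 7.40 CPM) and 0.0824 in Y-linked cells (23.2 and 24.5 CPM).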

How the results depend on the processing

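Against 41 genes higher and 41 lower at day 6, a pseudocount of 5 CPM gave 27 and 19, a mean of at least 30 CPM 17 and 17 of 4076 genes, no limit on low values 579 and 731 of 19161 genes, and cells with *Xist* UMIs only (211 and 865 cells) 105 and 64. All other settings gave 39 to 61 higher and 30 to 48 lower genes. The barcode thresholds stated for the library gave 45 and 40 with 1139 and 2414 cells. *Ftl1-ps1* turned to -0.63 in Y-linked cells, and the cause was not tested. Of 3486 ratios of 166 named genes under 21 alternatives, 986 (28.3%) left the counting interval of the reported ratio. No scaling moved the median log2 ratio of all genes past 0.02. The list medians whose sign turned in at least 1 setting were those of the prostate regulators, WNT, EGF, retinoid, Hedgehog, D cyclin, hypoxia, integrated stress response, MHC, imprinted, redox, HOX, ribosomal and SOX lists. The basal median lay between 0.38 and 0.70, the proximal luminal between -0.91 and -0.09, and the heat shock between -0.57 and -0.39. No paired analysis was possible because each day is 1 pool. With 18 background cells, a gene found in none of them may still have up to 18.5% of cells with free RNA.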

Other observations

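Some of the most unequal genes fall outside the naming rule and were chosen after their values were seen. *Ramp1*, which encodes a modifier of calcitonin family receptors, was at 1.32, 2.38, 3.40 and 24.8 CPM at days 0, 1, 3 and 6, 7.27-fold higher at day 6 than at day 3 (95% interval 5.61 to 9.59). *Lbp*, a lipopolysaccharide binding protein gene, was at 14.8 and 62.6 CPM (4.23-fold higher, 3.72 to 4.82), and *Tbx2*, a T-box factor gene, at 7.65 and 25.3 CPM (3.31-fold, 2.76 to 3.99). *Cxcl12*, a chemokine gene, was at 17.6 and 49.4 CPM (2.81-fold, 2.49 to 3.18). All 4 were higher at day 6 in *Xist* cells and in Y-linked cells.

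On the lower side, *Krt23*, an acidic keratin gene, was at 3.33, 7.40, 44.3 and 9.66 CPM, highest at day 3 and 4.58-fold lower at day 6 (4.03 to 5.22). *Hmga2*, a chromatin protein gene of embryonic tissue, was at 71.3, 61.3, 37.5 and 18.4 CPM in descending order (2.04-fold lower, 1.83 to 2.27), and its relative *Hmga1* at 11.6, 11.3, 16.2 and 6.68 CPM (2.42-fold lower, 2.03 to 2.89). *Tpm3-rs7*, a copy of a tropomyosin gene, was at 27.7 and 2.33 CPM (11.9-fold lower, 9.42 to 15.2), with read assignment uncertain for the same reason as *Ftl1-ps1*.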
